A study of Sus scrofa with 16 samples.

Results

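The erythroid and endothelial miRNAs of the pig ovary were described here in the 2 phases of the estrous cycle. They were taken by name, as every entry of the miRNA count table for miR-451, miR-144, miR-486 or miR-126 of the pig (ssc). This found 3 entries, ssc-miR-144, ssc-miR-486 and ssc-miR-126-5p, of the 216 known miRNAs and 1940 entries in all. No row matched ssc-miR-451, and no second entry matched miR-126, so these were not analysed here. All 3 entries passed the filter on low counts, and none shared its counts with another entry of the table.

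The libraries hold small RNA from the ovaries of 16 sows of the Canadian Large White strain, 1 library per sow. Of these, 4 sows of high fecundity (LH) and 4 of low fecundity (LL) were in the luteal phase, on day 14 with the first day of estrus counted as day 1. Another 4 of high fecundity (FH) and 4 of low fecundity (FL) were in the follicular phase, on day 20. High and low fecundity were the sows' own phenotypes, and no agent or transgene separated the groups. Each value is from an RNA extract of ovarian tissue, in which fewer cells of a type and less RNA per cell cannot be told apart. The study's methods do not say which part of the ovary was taken.

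miR-144 and miR-451 are made from a shared transcript that the transcription factor GATA1 switches on as red blood cells mature, and miR-486 lies within the ankyrin gene ANK1 and is abundant in red cells and in muscle. miR-126 lies within EGFL7, a gene of the endothelium, the cell layer that lines blood vessels, and is a standard mark of these cells. The corpus luteum, which fills the luteal ovary, is among the most richly vascularised tissues of the body and regresses if no pregnancy follows. In the RefSeq annotation of the pig genome (Sscrofa11.1, a later build than the Sscrofa10.2 used for the counts, so no positions are given), MIR144 and MIR451 lay within 1000 bases of each other, MIR486-1 within ANK1 and MIR126 within EGFL7. Levels are given as CPM, counts scaled to a common library size with edgeR's TMM factors, which balance the libraries against each other.

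Total counts ran from 8998496 to 37194836 per library, and a count of 0 would allow up to 3 counts, or 0.0807 to 0.333 CPM without the TMM factor. Counts came from PCR-amplified reads, so this limit covers counting error only. The members lay far above it, at 155 to 2101 counts for ssc-miR-144, 150 to 1658 for ssc-miR-486 and 25251 to 587026 for ssc-miR-126-5p. The libraries LH4, FL2 and FL4 stood apart from the other 13 in ssc-miR-34c, a miRNA of ciliated and tubal epithelium, with 7335 to 21379 CPM against 18.3 to 196 CPM. Log2 fold changes and correlations of the 3 miRNAs are therefore also given without these 3 libraries, a choice made after seeing the data.

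The 3 miRNAs differed widely in abundance. By mean CPM over the 16 sows, ssc-miR-126-5p ranked 18 of the 216 known miRNAs, with 12128 ± 6390 CPM (mean ± SD, n = 16). The erythroid miRNAs ranked 140 and 150, with 41.2 ± 24.9 CPM for ssc-miR-144 and 30.8 ± 19.2 CPM for ssc-miR-486. The mature forms are of nearly the same length, so these levels were not divided by length. They are levels of reads, and how evenly adaptor ligation and PCR captured each miRNA was not tested.

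ssc-miR-144, which is made with miR-451 in maturing red cells, was at 21.2, 17.6, 88.6 and 35.4 CPM in LH1 to LH4 and at 71.0, 26.0, 46.2 and 55.2 CPM in LL1 to LL4. In the follicular phase it was at 38.5, 17.5, 22.2 and 19.1 CPM in FH1 to FH4 and at 28.1, 90.8, 22.7 and 58.5 CPM in FL1 to FL4. The highest level was in a follicular sow, FL2, and the next in a luteal sow, LH3, so that the ranges of the phases overlapped almost entirely. Group means were 40.7 ± 32.8 CPM in LH, 49.6 ± 18.8 CPM in LL, 24.3 ± 9.64 CPM in FH and 50.0 ± 31.4 CPM in FL (SD, n = 4 each). In the order FL, LL, LH, FH no neighbouring groups differed beyond their spread (exact two-sided permutation p = 0.886, 0.457 and 0.514).

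ssc-miR-486, the erythroid and muscle miRNA, was at 22.9, 18.7, 97.1 and 27.0 CPM in LH1 to LH4 and at 41.5, 27.3, 22.6 and 32.3 CPM in LL1 to LL4. It was at 31.5, 16.9, 24.0 and 13.1 CPM in FH1 to FH4 and at 24.7, 37.3, 22.2 and 33.7 CPM in FL1 to FL4. LH3 held the highest level by far, the next being 41.5 CPM in LL1, and apart from it the groups overlapped. Means were 41.4 ± 37.2 CPM in LH, 30.9 ± 8.09 CPM in LL, 29.5 ± 7.20 CPM in FL and 21.4 ± 8.14 CPM in FH (SD, n = 4 each). Neighbours in this order did not differ beyond their spread (exact two-sided permutation p = 0.914, 0.8 and 0.171).

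ssc-miR-126-5p, the endothelial miRNA, was at 22206, 9487, 7751 and 8977 CPM in LH1 to LH4 and at 15242, 26360, 15410 and 20207 CPM in LL1 to LL4. In the follicular phase it was at 11872, 9293, 11872 and 8134 CPM in FH1 to FH4 and at 9343, 2461, 11048 and 4381 CPM in FL1 to FL4. All 4 LL sows lay above all 8 follicular sows, whereas 3 of the 4 LH sows lay within the follicular range. FL2 and FL4, which were among the libraries high in ssc-miR-34c, held the lowest levels of all 16 sows. Means were 19305 ± 5237 CPM in LL, 12105 ± 6773 CPM in LH, 10293 ± 1884 CPM in FH and 6808 ± 4049 CPM in FL (SD, n = 4 each). Neighbours in this order did not differ beyond their spread (exact two-sided permutation p = 0.114, 0.886 and 0.229), whereas LL and FL, at its ends, did not overlap.

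**Figure D1:**
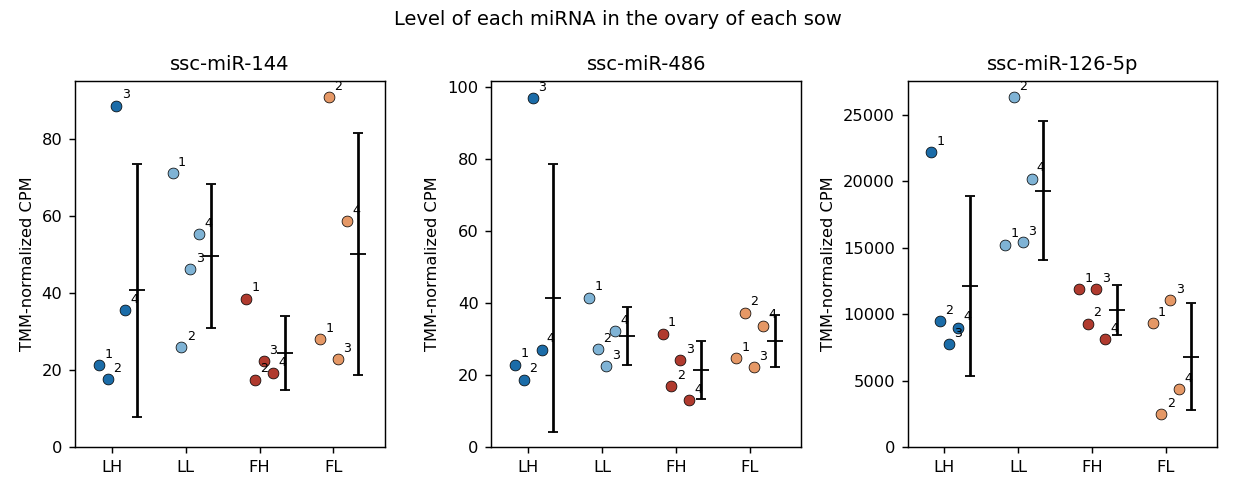
Level of each miRNA in TMM-normalized CPM (vertical axes, starting at 0) in the ovary of each sow, by group (horizontal axes). Points are sows with their number, and bars are the group mean ± SD (n = 4). ssc-miR-126-5p lies between 15242 and 26360 CPM in LL and between 2461 and 11048 CPM in FL, whereas the groups overlap for ssc-miR-144 and ssc-miR-486.

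To ask whether the miRNAs of blood and vessels differed with the phase of the cycle, the luteal and follicular sows were compared with edgeR's quasi-likelihood test in a model of the 4 groups. None of the 3 miRNAs passed an adjusted p of 0.05 (Benjamini-Hochberg over all miRNAs tested), where 17.5% of the 445 tested did. ssc-miR-126-5p was at 15705 ± 6799 CPM in the luteal and 8551 ± 3467 CPM in the follicular phase (SD, n = 8 each), a log2 fold change of 0.87 (SE 0.31, 1.83-fold, adjusted p = 0.0665 in edgeR). In 5 of the 8 luteal sows it was above the highest follicular sow. An exact two-sided permutation test over the sows gave p = 0.0227, or 0.214 after adjustment over the 15 such tests made, and 0.0278 with exchanges only within a fecundity class. Without LH1, which held the highest level in LH, the log2 fold change was 0.64 (adjusted p = 0.170 in edgeR), and without LH4, FL2 and FL4 it was 0.59 (adjusted p = 0.180 in edgeR).

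For the erythroid miRNAs the phases were not told apart. ssc-miR-144 was at 45.1 ± 25.2 CPM in the luteal and 37.2 ± 25.5 CPM in the follicular phase (SD, n = 8 each), with a log2 fold change of 0.37 (SE 0.42, adjusted p = 0.604 in edgeR). ssc-miR-486 was at 36.2 ± 25.6 CPM and 25.4 ± 8.33 CPM (SD, n = 8 each), with 0.51 (SE 0.37, adjusted p = 0.356 in edgeR). Exact permutation tests gave p = 0.458 and p = 0.281. LH3 decided most of both differences, which were 0.033 for ssc-miR-144 and 0.091 for ssc-miR-486 without it. For ssc-miR-144 the value was 0.58 without FL2 and 0.19 without FL3. Without LH4, FL2 and FL4 the log2 fold changes were 0.86 for ssc-miR-144 (adjusted p = 0.259) and 0.73 for ssc-miR-486 (adjusted p = 0.337 in edgeR). The median log2 fold change of all 445 miRNAs tested was 0.17 in the same direction, and that of the 200 known ones was -0.02. None of the 3 reached the threshold used by the study (an unadjusted P under 0.05 together with a log2 fold change of 1 or more in either direction), which 23.4% of those tested passed. Nor did any separate the phases without overlap, as 1.80% did.

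Within the low fecundity sows, ssc-miR-126-5p was 2.84-fold higher in the luteal phase (LL vs. FL, log2 fold change 1.50, SE 0.44, adjusted p = 0.0373 in edgeR) and passed the threshold of the study too. The 4 LL and 4 FL sows did not overlap, and the exact permutation test gave p = 0.0286, the smallest that 4 against 4 sows can give, or 0.214 after adjustment over 15 tests. By the adjusted p 15.5% of the 445 miRNAs were called in this comparison, by the threshold of the study 30.1%, and 22.9% had groups that did not overlap, so that ssc-miR-126-5p was 1 of many. Leaving out any 1 of the 8 sows took the adjusted p above 0.05, to between 0.0522 and 0.137, while the log2 fold change stayed between 1.14 (without FL2) and 1.72 (without FL1). All 8 of these fits passed the threshold of the study. They also tested more miRNAs, since the filter follows the size of the smallest group, so their adjustment differed. Without LH4, FL2 and FL4 the log2 fold change was 0.90 (adjusted p = 0.244 in edgeR), under the threshold of the study as well. The erythroid miRNAs were not told apart between LL and FL, with log2 fold changes of -0.01 (SE 0.59) for ssc-miR-144 and 0.07 (SE 0.53) for ssc-miR-486. Without FL2 these were 0.42 and 0.15, and without LH4, FL2 and FL4 they were 0.88 and 0.33 (adjusted p = 0.414 and 0.824 in edgeR).

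Within the high fecundity sows (LH vs. FH) the log2 fold changes, luteal over follicular, were 0.74 (SE 0.59, adjusted p = 0.603) for ssc-miR-144, 0.95 (SE 0.53, adjusted p = 0.366) for ssc-miR-486 and 0.23 (SE 0.44, adjusted p = 0.874) for ssc-miR-126-5p in edgeR. LH3 decided the first 2 values, which were 0.05 and 0.12 without it, and LH1 the third, which was -0.23 without it. Without LH4, FL2 and FL4 the 3 values were 0.84, 1.13 and 0.28. Called by the adjusted p in edgeR were 0% of the 445 miRNAs, where 70 had an unadjusted P under 0.05 and DESeq2 called 39, and 12.8% passed the threshold of the study. The difference between the phase effects of the fecundity classes, tested as an interaction, was -0.76 (SE 0.84) for ssc-miR-144, -0.89 (SE 0.75) for ssc-miR-486 and 1.27 (SE 0.62, adjusted p = 0.339 in edgeR) for ssc-miR-126-5p. Without LH3 the first 2 values were -0.027 and -0.056, and without FL2 that of ssc-miR-144 was -0.31. For ssc-miR-126-5p the interaction ran from 0.91 (without FL2) to 1.74 (without LH1) with a sow left out, and it passed the threshold of the study in 3 of these 16 fits and under 4 of 11 other settings, in none by the adjusted p. Without LH4, FL2 and FL4 the interaction was 0.046 for ssc-miR-144, -0.80 for ssc-miR-486 and 0.62 for ssc-miR-126-5p. No miRNA (0%) passed the adjusted p for the interaction in edgeR, where 63 had an unadjusted P under 0.05 and DESeq2 called 58, and 13.3% passed the threshold of the study. A phase difference of ssc-miR-126-5p in low but not in high fecundity sows was therefore not shown.

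**Figure D2:**
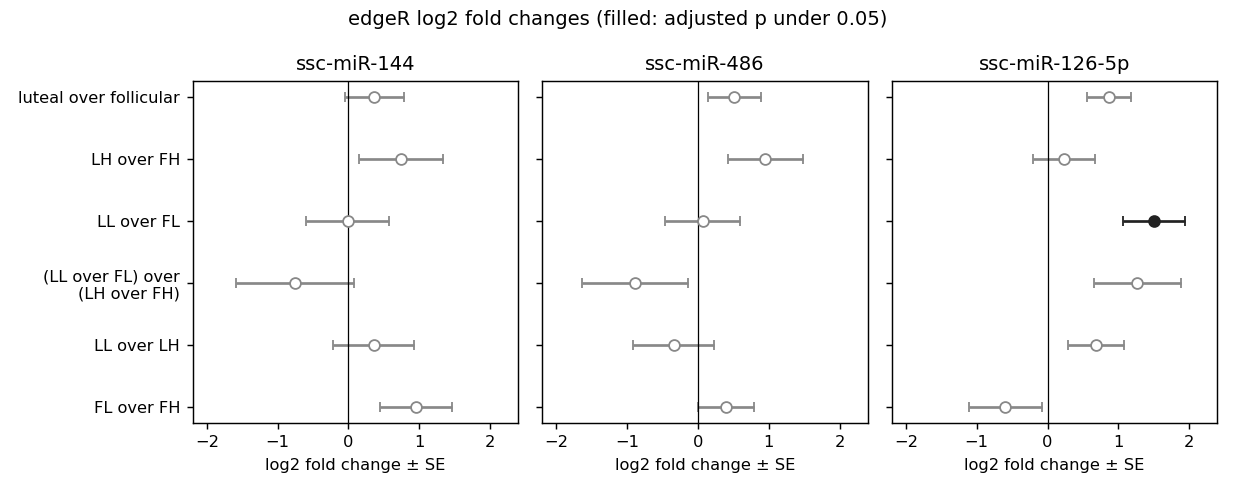
Log2 fold changes from edgeR (horizontal axes) of the 3 miRNAs in 6 comparisons (vertical axis, named as numerator over denominator), with bars of ± 1 SE and filled points for an adjusted p under 0.05. The single filled point is ssc-miR-126-5p in LL over FL, at 1.50.

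The fecundity classes were compared within each phase, as the study did. In the luteal phase (LL over LH) the log2 fold changes were 0.35 (SE 0.58) for ssc-miR-144, -0.35 (SE 0.57) for ssc-miR-486 and 0.68 (SE 0.39) for ssc-miR-126-5p, with adjusted p from 0.405 to 0.797 in edgeR, where 0.829% of the 362 miRNAs tested were called. The 4 LL sows reached 15242 CPM or more of ssc-miR-126-5p and 3 LH sows 9487 CPM or less, with LH1 in between the LL sows. Without LH1 the log2 fold change of ssc-miR-126-5p was 1.15 (adjusted p = 0.0720 in edgeR), and without LH3 that of ssc-miR-486 turned to 0.40 and that of ssc-miR-144 was 0.96. Without LL1 the value of ssc-miR-144 was 0.035. With parity as a covariate in this fit of 8 sows, the log2 fold changes were -1.05 for ssc-miR-144, -1.29 for ssc-miR-486 and 1.96 for ssc-miR-126-5p. None of these had an adjusted p under 0.05 in edgeR, and the cause of the shifts was not tested. Without LH4, and without the covariate, the log2 fold changes were 0.21, -0.59 and 0.55. In the follicular phase (FL over FH) they were 0.95 (SE 0.51) for ssc-miR-144, 0.39 (SE 0.40) for ssc-miR-486 and -0.59 (SE 0.51) for ssc-miR-126-5p, with adjusted p from 0.701 to 0.797, where 0.651% of 307 were called. Without FL2 these values were 0.48, 0.26 and -0.31, and without FL2 and FL4 they were 0.13, 0.18 and 0.01. The threshold of the study was passed by 13.0% and 6.19% of the miRNAs tested in the 2 comparisons and by none of these 3. ssc-miR-126-5p passed it in LL over LH without LH1, with library size only (1.22) and with parity, and ssc-miR-144 in FL over FH without FL3 (1.29), none of them by the adjusted p.

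From sow to sow the erythroid miRNAs moved together. With the means of the 4 groups removed, log2(CPM + 1) of ssc-miR-144 and ssc-miR-486 correlated with r = 0.853 over 16 sows (permutation p = 0.00018 within groups, adjusted over 3 pairs 0.00054) and Spearman's rho = 0.774 (permutation p = 0.00082, adjusted 0.00246). The correlation was 0.896 among the luteal and 0.819 among the follicular sows, 0.786 without FL2 and LH3, the sows farthest from the median of ssc-miR-144, and 0.906 without LH4, FL2 and FL4. Their ratio within a library, which does not depend on scaling, had log2 values from -0.13 in LH3 to 1.28 in FL2. Its luteal mean was 0.32 ± 0.48 and its follicular mean 0.38 ± 0.47 (SD, n = 8 each), a difference within the spread (exact two-sided permutation p = 0.798, also 0.798 adjusted over 4 ratios). By fecundity it was 0.63 in LL and 0.01 in LH (exact permutation p = 0.0571, adjusted over 16 comparisons 0.327). It was 0.57 in FL and 0.19 in FH (exact permutation p = 0.314).

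The endothelial miRNA showed no such positive relation to them. ssc-miR-126-5p and ssc-miR-144 correlated with r = -0.681 over 16 sows (permutation p = 0.0360, adjusted over 3 pairs 0.0541) and rho = -0.685 (permutation p = 0.0293, adjusted 0.0440), with -0.622 in the luteal and -0.760 in the follicular phase. The value was -0.573 without FL2 and LL2, the sows farthest from the median of ssc-miR-126-5p, and -0.462 without LH4, FL2 and FL4 (permutation p = 0.437). It was -0.467 with CPM scaled by library size only (permutation p = 0.152). The relation was thus weaker without LH4, FL2 and FL4 and with this scaling, and the cause was not tested. For ssc-miR-126-5p and ssc-miR-486 r was -0.346 (permutation p = 0.247) and rho -0.297 (permutation p = 0.289). The log2 ratios of ssc-miR-126-5p to ssc-miR-144 and to ssc-miR-486 were 0.59 and 0.53 higher in the luteal phase, both within the spread between sows (exact permutation p = 0.414 and p = 0.358, n = 8 each). Without FL2 they were 0.14 and 0.21, and without LH4, FL2 and FL4 they were -0.14 and 0.01.

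**Figure D3:**
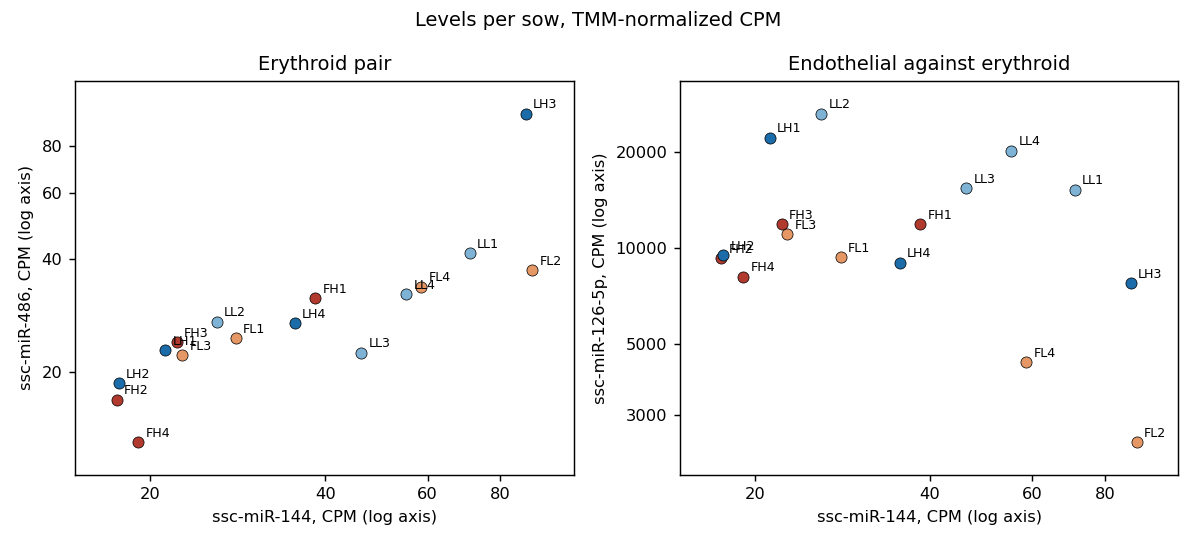
Levels of ssc-miR-486 (left) and ssc-miR-126-5p (right) against ssc-miR-144 in TMM-normalized CPM, on log axes, with 1 labelled point per sow coloured by group. The points of the erythroid pair rise together from FH4 and FH2 to LH3, and on the right FL2, FL4 and LH3 combine high ssc-miR-144 with ssc-miR-126-5p of 2461 to 7751 CPM. LL1 and LL4, also high in ssc-miR-144 (71.0 and 55.2 CPM), hold 15242 and 20207 CPM of ssc-miR-126-5p.

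miR-143 and miR-145 are abundant in smooth muscle cells and pericytes, the cells that wrap vessels, but are not particular to them. The endothelial miRNA was set against miR-145 within each library. The ratio of ssc-miR-126-5p to ssc-miR-145-5p counts was 2.85, 0.649, 0.642 and 0.500 in LH1 to LH4 and 2.18, 5.74, 1.77 and 2.26 in LL1 to LL4. It was 0.516, 0.189, 0.615 and 0.242 in FH1 to FH4 and 0.534, 0.0551, 0.162 and 0.114 in FL1 to FL4. Only LH4 among the luteal sows fell within the follicular range. On the log2 scale the means were 0.61 ± 1.24 in the luteal and -2.12 ± 1.22 in the follicular phase (SD, n = 8 each), a difference of 2.73 or 6.63-fold (exact two-sided permutation p = 0.000932, adjusted over 4 ratios 0.00373).

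This ratio stayed apart without LH4, FL2 and FL4, at 2.45 on the log2 scale (exact permutation p = 0.00350, adjusted 0.0140, n = 7 and 6). The denominator moved on its own, as ssc-miR-145-5p was at 10210 ± 4387 CPM in the luteal and 36693 ± 17185 CPM in the follicular phase (SD, n = 8 each; log2 fold change -1.89, SE 0.29, adjusted p = 0.00222 in edgeR). ssc-miR-126-5p alone was at 0.87 (adjusted p = 0.0665 in edgeR). ssc-miR-145-5p was taken from lists chosen with earlier results of these data known, so the p-value of the ratio is no separate test of ssc-miR-126-5p. Between LL and FL the ratio differed 17.4-fold without overlap (exact permutation p = 0.0286, adjusted over 16 comparisons 0.327). That difference, 4.12 on the log2 scale, ran from 3.63 to 4.72 with a sow left out, and its exact permutation p was 0.0571 without LL2 or LL4. Between LH and FH the ratio differed 2.53-fold, or by 1.34 on the log2 scale (exact permutation p = 0.0857), and by 0.77 without LH1 (exact permutation p = 0.229).

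**Figure D4:**
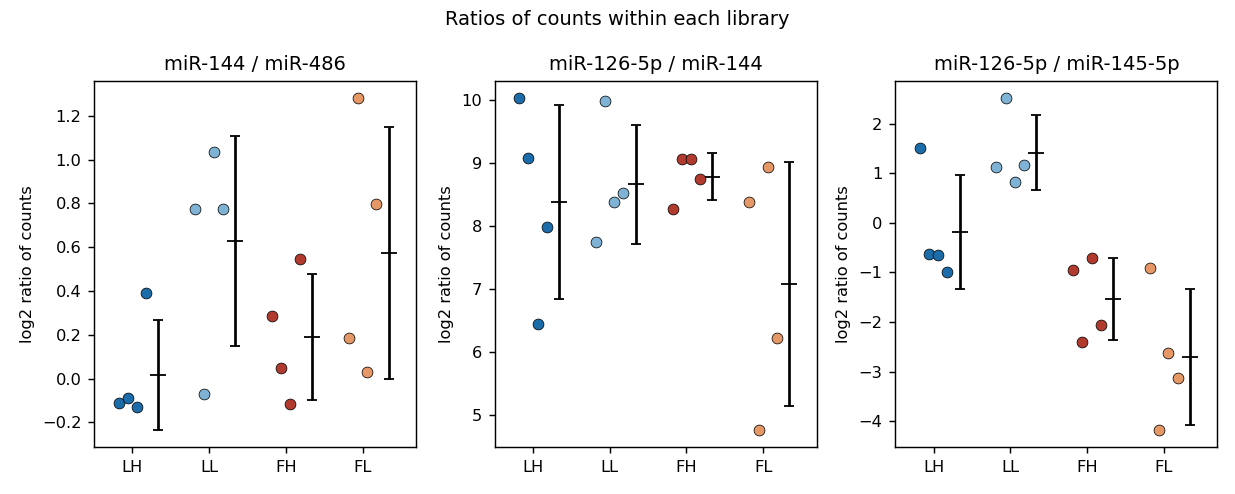
Log2 ratios of counts within each library (vertical axes) for ssc-miR-144 to ssc-miR-486, ssc-miR-126-5p to ssc-miR-144 and ssc-miR-126-5p to ssc-miR-145-5p, by group (horizontal axes). Points are sows and bars the group mean ± SD (n = 4). The ratio to ssc-miR-145-5p lies between 0.83 and 2.52 in LL and between -4.18 and -0.90 in FL.

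Lists of miRNAs known from other cells of blood and vessels were set beside the members, each read against the 17.5% of all miRNAs called between the phases. Of 8 others abundant in red cells, 2 rose in the luteal phase and none fell, with a median log2 fold change of 0.27 against 0.17 over all miRNAs tested. Those that rose were ssc-miR-185 (1.09, adjusted p = 0.0273 in edgeR) and ssc-miR-107 (0.93, adjusted p = 0.00785 in edgeR). The rise of ssc-miR-107 was not seen in the high fecundity sows, at -0.04 in LH vs. FH. Its interaction, positive for a larger rise in low fecundity sows, was 1.95 (adjusted p = 0.0693 in edgeR). For ssc-miR-185 these values were 0.75 and 0.68 (interaction adjusted p = 0.693 in edgeR). Between the phases ssc-miR-16 was at -0.16 (adjusted p = 0.684), ssc-miR-92a at -0.08 (adjusted p = 0.829) and ssc-miR-15a at -0.18 (adjusted p = 0.661 in edgeR). ssc-miR-363 was at 0.64 (adjusted p = 0.123), ssc-miR-191 at 0.27 (adjusted p = 0.291) and ssc-miR-15b at 0.27 (adjusted p = 0.440 in edgeR). The list thus held both signs, and beyond the 2 rises named no value passed the adjusted p. The summed level of the list ran from 5692 to 9590 CPM in the luteal and from 5257 to 7781 CPM in the follicular sows, far above ssc-miR-144, and other ovarian cells express these miRNAs too.

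Of 17 miRNAs studied in endothelium and vessel growth, 3 rose and 4 fell in the luteal phase, with a median log2 fold change of -0.11. The largest rise was that of ssc-miR-222 (1.41, adjusted p = 0.0193 in edgeR), and ssc-miR-221-3p and ssc-miR-221-5p, whose counts were identical in all libraries, made up the other 2. The largest fall was that of ssc-miR-10a-5p (-2.00, adjusted p = 0.0273 in edgeR). In the high fecundity sows ssc-miR-10a-5p was at only -0.21 (LH vs. FH, adjusted p = 0.977 in edgeR), with an interaction of -3.59 (adjusted p = 0.166 in edgeR). Its luteal median was 431 CPM and its luteal maximum 7978 CPM. The summed level of the list was 22665 to 42128 CPM in the luteal and 19355 to 48260 CPM in the follicular sows. This sum and the median hold miR-221 2 times. They also hold ssc-miR-24-1-5p and ssc-miR-24-2-5p, whose levels were nearly the same (luteal mean 2575 CPM for each). Unlike the log2 fold change of ssc-miR-126-5p, the median of the list lay below 0. All 3 entries of smooth muscle and pericytes fell, ssc-miR-143-3p by 1.12 on the log2 scale (adjusted p = 0.00222 in edgeR). Its level was 67363 to 194876 CPM in the luteal and 125791 to 395591 CPM in the follicular sows. The entries for the 2 arms of miR-143 had identical counts, so no summed level is given for this list.

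Of the leukocyte miRNAs 5 were in the table and tested, and 2 of them fell in the luteal phase, ssc-miR-150 of lymphocytes (-1.23, adjusted p = 0.0377 in edgeR) and ssc-miR-142-5p. The latter was at 0 counts in 5 of 8 luteal and 1 of 8 follicular libraries and as high as 513 CPM elsewhere, so no fold change is given. In the high fecundity sows ssc-miR-150 was at only -0.29 (LH vs. FH, adjusted p = 0.874 in edgeR). Its interaction was -1.87 (adjusted p = 0.277 in edgeR), and that of ssc-miR-142-5p had the opposite sign (adjusted p = 0.116 in edgeR). The summed level of the list was 1100 to 2479 CPM in the luteal and 1723 to 3363 CPM in the follicular sows. Among miRNAs of skeletal and heart muscle, where miR-486 is also made, 5 of 6 were tested, ssc-miR-499-5p rose (0.94, adjusted p = 0.0146 in edgeR) and 3 fell, of which ssc-miR-133b fell most (-2.59, adjusted p = 0.00265 in edgeR). ssc-miR-1 was at -0.68 (adjusted p = 0.244). The muscle list summed to 449 to 3256 CPM in the luteal and 565 to 4256 CPM in the follicular sows, and its part in the level of ssc-miR-486 was not tested.

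Markers of tubal and other epithelium held 5 entries, of which 2 rose and 1 fell. Their summed level was 145 to 21828 CPM in the luteal and 157 to 16083 CPM in the follicular sows, with the highest values in LH4, FL4 and FL2. The liver miRNA ssc-miR-122 was at 1.76 to 99.5 CPM in the luteal and 3.27 to 1363 CPM in the follicular sows, highest in FL2 (log2 fold change -2.28, adjusted p = 0.120 in edgeR). FL2 was thus the sow with the highest ssc-miR-144, the lowest ssc-miR-126-5p and the highest ssc-miR-122.

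**Figure D5:**
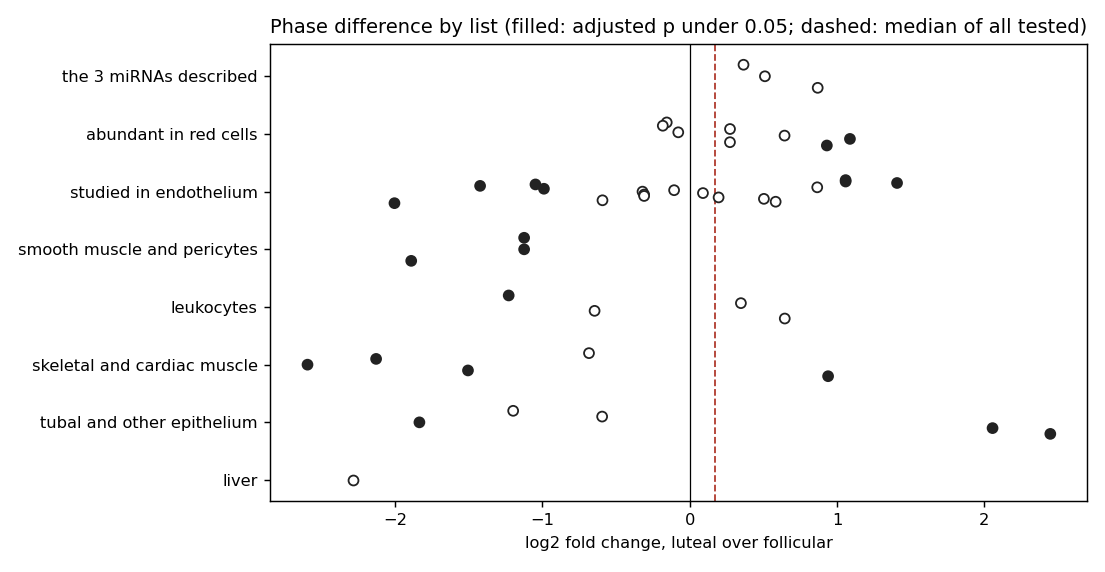
Log2 fold change, luteal over follicular (horizontal axis), of the 3 miRNAs described and of the miRNAs of each list (vertical axis), 1 point per miRNA, filled for an adjusted p under 0.05 in edgeR, with the median of all miRNAs tested dashed. ssc-miR-142-5p is left out because it had 0 counts in 6 libraries. The 3 miRNAs described lie at 0.37, 0.51 and 0.87, all open, and the 3 entries of smooth muscle and pericytes are filled and below -1.

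Among the 199 other known miRNAs that passed the filter, the level of ssc-miR-486 was the most like that of ssc-miR-144 over the 16 sows (r = 0.831 of log2(CPM + 1)), ahead of ssc-miR-490-5p (0.678) and ssc-miR-425-5p (0.673). The likeness held both ways, as ssc-miR-144 headed the list of ssc-miR-486, followed by ssc-miR-182 (0.656) and ssc-miR-183 (0.645), which share a gene cluster and rose in the luteal phase (2.06, adjusted p = 0.0183, and 2.45, adjusted p = 0.0242 in edgeR). For ssc-miR-126-5p the most alike were ssc-miR-137 (0.802), ssc-miR-450c-5p (0.778) and ssc-miR-218 (0.774). With the group means removed these were 0.516, 0.540 and 0.493, whereas that of the erythroid pair stayed at 0.853. ssc-miR-450c-5p (1.67, adjusted p = 0.00224) and ssc-miR-218 (0.91, adjusted p = 0.0183) rose in the luteal phase in edgeR, and ssc-miR-137 was at 1.16 CPM on average with 0 counts in 2 follicular libraries. These correlations are descriptions over libraries of different depth.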

How the data were processed

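The data were small RNA-seq libraries of the ovaries of 16 sows, each a separate animal. According to the study's methods the authors trimmed reads with Trimmomatic, mapped them to Sscrofa10.2 with Bowtie 2 (2.1.0 per the labels) and predicted further miRNAs with miRDeep. They deposited raw counts per miRNA and library, without normalization or filtering. The rule by which reads were given to a miRNA is not given in the sources used here. Of the known entries, 72 are named as 5p, 8 as 3p and 136 as neither, and 4 of 8 hairpins with both arms listed had identical counts for them, so the arm behind ssc-miR-126-5p cannot be told from the counts.

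The counts were tested with edgeR 4.0.16 in R 4.3.3 (TMM factors, quasi-likelihood test, filterByExpr at a minimum of 10 counts and 15 in total), with all 16 libraries for the phases and the 8 of each phase for fecundity. Library totals ran from 8998496 to 37194836 counts and TMM factors from 0.670 to 1.74, highest in LL (1.19 to 1.74). Single values were compared with exact two-sided permutation tests of log2(CPM + 1) or log2 count ratios, and correlations with 100000 permutations within groups. The tests were checked on simulated counts.

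The members and lists were chosen with earlier results of these data known. Named were all members, for each the 3 known miRNAs with the highest correlation, ssc-miR-143-3p, ssc-miR-145-5p, ssc-miR-16, ssc-miR-92a, ssc-miR-142-5p and ssc-miR-1 as references, and per list the largest called rise and fall. Others (ssc-miR-34c, ssc-miR-122, ssc-miR-107, ssc-miR-150 and the identical entries of miR-221 and miR-143) were named after their values were seen. Alternatives were DESeq2 1.42.0, other scalings and filters, collapsed identical entries, robust estimation, parity or clean read share as a covariate, a replicate block, other libraries in the fit, and leaving out sows.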

Additional observations from a re-analysis of the deposited data

Results flagged for a closer look

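Within groups of 4 sows, 28 groups of values (3 levels and 4 ratios in 4 groups) were searched for a sow whose gap to the nearest other exceeded Dixon's 95% critical value of 0.829 of the range. There were 4 such values, all in LH, and chance gives about 1 in 20 groups. ssc-miR-486 was at 97.1 CPM in LH3, far above the other LH sows, and ssc-miR-126-5p was at 22206 CPM in LH1. The log2 ratio of ssc-miR-144 to ssc-miR-486 was 0.39 in LH4, where the other LH sows lay between -0.13 and -0.09. The log2 ratio of ssc-miR-126-5p to ssc-miR-145-5p was 1.51 in LH1 and at most -0.62 in the other LH sows. LH4 was also among the libraries high in ssc-miR-34c, and LH1 and LH3 were not. Without LH3 the log2 fold change of ssc-miR-486 between phases was 0.091 in place of 0.51, and without LH1 that of ssc-miR-126-5p was 0.64 in place of 0.87.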

How the results depend on the processing

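Of 473 values of 25 results under the other settings (those without LH4, FL2 and FL4, chosen after seeing the data, not counted), 436 kept their direction and their side of an adjusted p of 0.05. Most of these results did not pass it in the main fit, so for them keeping that side says little. The higher ssc-miR-126-5p in LL than in FL kept the study's threshold under all 12 other settings and with each of the 8 sows left out. Its adjusted p stayed under 0.05 in 8 of the 12 settings, and in none of the fits with a sow left out. Its log2 fold change was 1.46 with TMM on the known miRNAs (adjusted p = 0.0575), 1.44 with RLE size factors (0.0533), 1.43 with at least 10 counts in 4 libraries (0.0666), 1.55 with only the 8 libraries compared (0.0712), 1.14 to 1.72 with a sow left out, and 0.90 leaving out LH4, FL2 and FL4. The fits with a sow left out tested 505 to 534 miRNAs in place of 445, since the filter follows the size of the smallest group. The phase difference of ssc-miR-126-5p passed with library size only (1.37, adjusted p = 0.00721), which moved the median log2 fold change of all miRNAs to 0.55. Directions also turned, none of them in a result that passed the adjusted p. For ssc-miR-144 in LL vs. FL the log2 fold change was 0.46 with no TMM factors, 0.10 with TMM on known entries, 0.0263 with RLE size factors, 0.0266 with DESeq2, 0.0862 without a filter, 0.0499 with the stricter filter, 0.0822 with identical entries collapsed, 0.11 with parity, 0.27 with the clean read share, 0.13 with only the 8 libraries, -0.30 to 0.42 with a sow left out and 0.88 leaving out LH4, FL2 and FL4. For ssc-miR-486 in LL vs. FL it ran from -0.11 to 0.19 with a sow left out, and for ssc-miR-126-5p in LH vs. FH from -0.23 to 0.40. In LH vs. LL, where the values were -0.35 for ssc-miR-486 and 0.35 for ssc-miR-144, it was 0.29 for ssc-miR-486 with library size only and -0.63 to 0.40 with a sow left out, and -1.05 for ssc-miR-144 with parity. In FH vs. FL ssc-miR-126-5p, at -0.59, was at 0.0410 with the clean read share and 0.0123 leaving out FL2 and FL4. The interaction of ssc-miR-144, at -0.76, was 0.0459 leaving out LH4, FL2 and FL4. The difference in the log2 ratio of ssc-miR-144 to ssc-miR-486 ran from -0.163 to 0.0676 with a sow left out and was 0.15 leaving out LH4, FL2 and FL4, and that of ssc-miR-126-5p to ssc-miR-144, at 0.59, was -0.14. The cause was not tested.

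Replicate numbers name different sows and did not pair them: deviations from the group means correlated from -0.448 to 0.413 in the 24 pairs of libraries with the same number, 9 of them over 0.1, and 25 of 72 other pairs were over 0.1. With a replicate block the log2 fold change of ssc-miR-126-5p was 1.67 in LL vs. FL (adjusted p = 0.0421) and 0.92 between phases (adjusted p = 0.0717), and no call of the 3 miRNAs changed. Numbers of miRNAs past the adjusted p fell to 56 from 78 between phases and to 39 from 69 in LL vs. FL under the block. DESeq2 called 141 and 138 in these comparisons.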
